A study of Mus musculus with 4 samples.

Results

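The genes Tlx1, Lbx1 and Nkx2-3, which encode homeodomain transcription factors, and Tlx1os, an antisense transcript of the Tlx1 locus, all lie on mouse chromosome 19. These 4 of the 1142 genes in the deposited tables were chosen by their symbol, with their low values in miR-9 knockout tumours and higher values in control tumours already known. The contrast that chose them is therefore described here and supports nothing further. Sequencing covered the RNA of 4 tumour samples, all from female mice of the MMTV-PyMT strain with a mixed C57BL/6 background: 2 with a miR-9 knockout (knockouts 1 and 2) and 2 without it (controls 1 and 2), the controls being littermates. All 4 samples carry the PyMT transgene, a polyoma virus middle T oncogene driven by the promoter of mouse mammary tumour virus, which gives mammary tumours. The labels name miR-9 exon 1 as the site of the knockout and heterozygous mice as its source. The zygosity of the mice that bore the tumours, the miR-9 locus concerned and the number of animals or tumours behind a sample are not stated in the labels. The p-values below therefore measure only the spread between these samples, which may be technical. Ages are not stated.

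Homeodomain proteins bind DNA through a conserved helical domain and set cell identity in the embryo. TLX1, also called HOX11, is required for the spleen to form in mice and is an oncogene of human T-cell acute lymphoblastic leukaemia, where translocations switch it on. LBX1 marks the muscle precursors that migrate into the limb and a class of dorsal spinal interneurons. NKX2-3 is needed in mice for normal spleen and gut-associated lymphoid tissue, including the endothelial homing receptor MAdCAM-1. miR-9 is a microRNA best known from the developing nervous system. It represses messenger RNAs that pair with its seed, bases 2 to 8 counted from its 5′ end.

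The microRNA named in the genotype is shown because the knockout is named for it. Its level was not measured here. RefSeq lists the same pair of mature mouse sequences at 3 loci, on chromosomes 13, 3 and 7, here with the seed in capitals:
mmu-miR-9-5p: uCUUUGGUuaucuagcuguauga
mmu-miR-9-3p: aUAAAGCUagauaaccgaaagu
The letters ACCAAAG, which pair with the seed of the 5p arm, and AGCTTTA, which pair with that of the 3p arm, were searched in the longest annotated 3′ untranslated region of each gene. Neither was found in Tlx1 (827 bases), Lbx1 (1050 bases) or Nkx2-3 (847 bases), and Tlx1os has no such region annotated. Of 21037 genes with an annotated region, 12.2% held the 5p letters and 11.3% the 3p letters. Among the 1039 listed genes with one, the shares were 15.0% and 12.5%. The search describes these letters in these regions and nothing else.

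Promoter windows, 250 bases before to 50 after the RefSeq start of the gene, were found in RefSeq (GRCm38.p6) for 2 of the 4 genes, Nkx2-3 and Tlx1. Positions below count from that start, which for Nkx2-3 is the start in the deposited tables and for Tlx1 lies 35 bases downstream of it. They are shown because both genes were low in the same samples, and the capitals mark CCAAT on either strand. Each motif below was searched on both strands.
Nkx2-3, chr19:43612075-43612374, plus strand: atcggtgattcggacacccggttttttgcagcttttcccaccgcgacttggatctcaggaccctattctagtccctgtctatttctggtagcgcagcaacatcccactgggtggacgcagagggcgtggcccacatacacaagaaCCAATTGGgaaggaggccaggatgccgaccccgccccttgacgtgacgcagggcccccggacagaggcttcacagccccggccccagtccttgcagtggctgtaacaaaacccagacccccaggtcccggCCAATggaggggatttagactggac
Tlx1, chr19:45150465-45150764, plus strand: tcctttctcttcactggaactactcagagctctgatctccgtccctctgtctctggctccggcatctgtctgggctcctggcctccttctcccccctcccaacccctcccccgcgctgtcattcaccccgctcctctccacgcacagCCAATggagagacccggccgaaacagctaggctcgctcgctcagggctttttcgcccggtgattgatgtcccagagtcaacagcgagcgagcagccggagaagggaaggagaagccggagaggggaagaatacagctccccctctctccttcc
In the Nkx2-3 window CCAAT began 105 bases before the start on the plus strand and 102 bases before it on the minus strand, as 1 overlapping palindrome, and once more 26 bases after the start. In the Tlx1 window it began once, 103 bases before the start, and 37.4% of 32817 promoter windows held it. GGGCGG and ACGTG were each found once in the Nkx2-3 window, 75 and 65 bases before the start, and not in that of Tlx1. They occurred in 35.6% and 19.6% of all windows. TATAAA (13.6% of windows), the homeodomain-type letters TAATTA (5.30%), CAAGTG (13.6%) and CACGTG (7.15%), which contains ACGTG, were in neither window. C plus G made up 60.0% of the Nkx2-3 window and 61.7% of the Tlx1 window, against a median of 52.7% over all windows. CpG occurred 15 times in the first and 16 times in the second, against a median of 7. Of all windows, 65.4% held fewer CpG than that of Nkx2-3 and 67.0% fewer than that of Tlx1. The shares with less C plus G were 70.5% and 74.6%. These matches describe letters and mark no known binding site.

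The values are gene read counts that the authors divided by 1 size factor per sample, called normalised reads below. They are not corrected for gene length. With a relative depth of 1.11 and 1.04 in the knockouts and 0.998 and 0.885 in the controls, 1 read was worth between 0.904 and 1.13 normalised reads. The listed genes held 694925 and 697334 reads in the knockouts and 512574 and 458335 in the controls. The tables hold only genes that the study selected with a difference of at least 2.0-fold, to 2 digits, between these groups, so other genes were not analysed here. No miR-9 transcript is among the listed genes, so the knockout itself was not checked.

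Tlx1 (ENSMUSG00000025215) lies on the plus strand of chromosome 19 at 45150680 to 45156943 in GRCm38, with 3 exons and 2139 exonic bases. It had 3.61 and 0.959 normalised reads in knockouts 1 and 2, against 2251 and 149 in controls 1 and 2. In reads this was 4 and 1 in the knockouts, against 2246 and 132 in the controls. Both knockouts were near 0, and control 1 stood far above control 2. The means were 2.29 ± 1.88 in knockouts and 1200.0 ± 1486 in controls (SD, n = 2 each), 525-fold lower in the knockouts. The ratio of reads, corrected for depth, was 543, with a 95% counting interval of 232 to 1674 (exact Clopper-Pearson). Against control 1 alone the knockout mean was 984-fold lower, and against control 2 alone 65.2-fold. Such intervals cover counting error only, since no molecular identifiers separate copies of 1 molecule. In bulk tumour RNA, fewer cells that express a gene and less of its RNA per cell cannot be told apart.

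**Figure D1:**
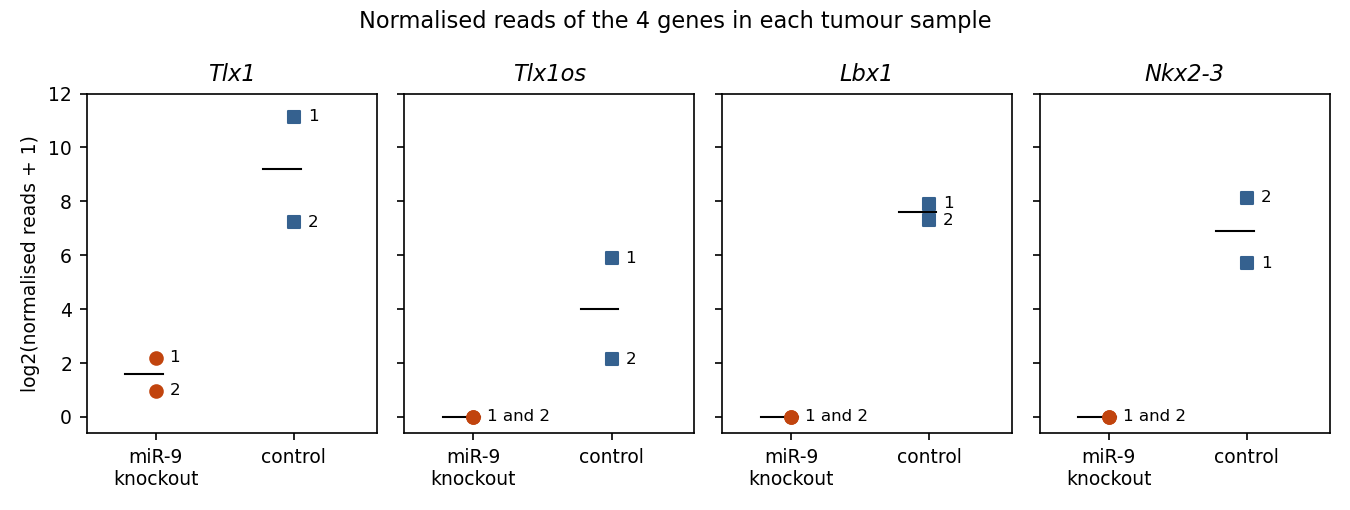
Level of each gene in each sample, as log2(normalised reads + 1), with knockouts as circles and controls as squares. Numbers name the samples and the black line is the mean of the 2 values. In each panel both knockouts lie below both controls, as in 441 of the 1142 listed genes, with both above in 700. The control on top is control 1 for Tlx1, Tlx1os and Lbx1 and control 2 for Nkx2-3.

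Tlx1os (ENSMUSG00000092346) is annotated as antisense, on the minus strand at 45154057 to 45159304, with 2 exons and 620 exonic bases. It had no read in knockouts 1 and 2, against 58.1 and 3.39 normalised reads in controls 1 and 2, that is 58 and 3 reads. Over both knockouts together, a count of 0 allows up to 3 reads, and against that floor the knockouts were at least 22-fold lower than the control mean of 30.8 ± 38.7 (SD, n = 2). Against control 1 alone they were at least 41.6-fold lower. Control 2 itself had only 3 reads, the size of the floor, so no fold is given against it. Per library, 3 reads would be 2.71 normalised reads in knockout 1 and 2.88 in knockout 2.

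The gene spans of Tlx1 and Tlx1os overlap by 2887 bases but share 0 exonic bases in GENCODE M21. One exon of Tlx1os, of 225 bases (45154057 to 45154281), lies inside intron 2 of Tlx1. The other, of 395 bases (45158910 to 45159304), begins 1966 bases past the end of Tlx1. No strand setting of the counting is stated in the labels, so reads from unspliced Tlx1 RNA or from RNA beyond its annotated end cannot be told apart from Tlx1os reads. Tlx1os took 58 of the 2304 reads of both genes in control 1, 2.52% (95% interval 1.92% to 3.24%, exact Clopper-Pearson). In control 2 it took 3 of 135, 2.22% (0.461% to 6.36%). The intervals overlap, while the reads of each gene differed more than 15-fold between the controls. Per kilobase of exon, Tlx1os stood at 8.91% of the Tlx1 level in control 1 and 7.84% in control 2.

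Lbx1 (ENSMUSG00000025216) lies on the minus strand at 45232684 to 45235812, with 2 exons and 2484 exonic bases. It had no read in knockouts 1 and 2, against 239 and 156 normalised reads in controls 1 and 2, or 238 and 138 reads. The controls were close to each other, and neither knockout reached 1 read. Against the floor of 3 reads over both knockouts, they were at least 141-fold lower than the control mean of 197 ± 58.4 (SD, n = 2). Against control 1 alone the bound was 171-fold and against control 2 alone 112-fold.

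Nkx2-3 (ENSMUSG00000044220) lies on the plus strand at 43612325 to 43615892, with 2 exons and 2112 exonic bases. It too had no read in knockouts 1 and 2, against 51.1 and 279 normalised reads in controls 1 and 2, or 51 and 247 reads. Here control 2 was the higher. Against the same floor the knockouts were at least 118-fold lower than the control mean of 165 ± 161 (SD, n = 2). The bound was 36.6-fold against control 1 alone and 199.8-fold against control 2 alone.

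On the log2(value + 1) scale, the differences, knockout minus control, were −7.60 for Tlx1 (SE 1.10), −4.01 for Tlx1os (SE 1.32), −7.60 for Lbx1 (SE 0.66) and −6.92 for Nkx2-3 (SE 0.91), from limma over all listed genes. Of the 1142 listed genes, 38.5% were called lower at a limma adjusted p under 0.05 after Benjamini-Hochberg adjustment. All 4 genes of the set were among them. As the same contrast chose them and the study chose the table, nothing is read from that count. Another 61.3% of the listed genes were called higher, and 1140 of the 1142 had an unadjusted limma p under 0.05. The study selected the listed genes by their difference between these same groups. A small adjusted p, here or below, was therefore nearly fixed in advance and is no support for a single gene. Counted from the lowest difference of the 1142, Lbx1 was number 2, Tlx1 number 3, Nkx2-3 number 4 and Tlx1os number 27. The lowest was Glycam1 at −7.74, which encodes a mucin-like glycoprotein of lymph node venules and mammary gland, and the next after Nkx2-3 was Fndc3c1 at −5.14. These ranks depend on the pseudocount. With 0.1 Lbx1 was number 1, Nkx2-3 number 2, Tlx1 number 3, Glycam1 number 4 and Tlx1os number 7, and with 5 Glycam1 was number 1, Tlx1 number 2, Lbx1 number 3, Nkx2-3 number 5 and Tlx1os number 105. Without control 1 the difference of Tlx1os was −2.13. With knockout 1 or knockout 2 left out, 0 of the 4 passed limma's adjusted threshold, while each log2 difference stayed negative. Only 13 of all listed genes passed in either case, although 453 without knockout 1 and 392 without knockout 2 had an unadjusted p under 0.05.

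Few listed genes lacked reads in both knockouts. There were 9, of which 3 were Lbx1, Nkx2-3 and Tlx1os. The other 6 had control means between 13.2 and 23.2 normalised reads, below those of these 3 genes. As the 3 were chosen with their low knockout and higher control values known, nothing is read from that order. With at least 10 reads required in each control, 3 of the 9 remained: Lbx1, Nkx2-3 and Lemd1, which had 14 and 15 control reads. In the other direction, 12 listed genes had no read in either control.

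The controls differed more from each other than the knockouts did: the median absolute difference between replicates over all listed genes was 0.25 between the knockouts and 0.62 between the controls, on the log2(value + 1) scale. The 4 genes were chosen with their higher control values known, so their spread between the controls is not independent of that choice. With 1 sample on each side it is a description. Tlx1 was 15.1-fold higher in control 1 than in control 2 (counting interval 12.7 to 18.1), a log2 difference of 3.91 that 4 of the 1142 genes (0.350%), Tlx1 included, equalled or exceeded in size. Tlx1os was 17.1-fold higher in control 1 (5.58 to 85.6), a log2 difference of 3.75, which 6 genes (0.525%) reached. Nkx2-3 went the other way and was 5.46-fold higher in control 2 (4.02 to 7.53), with a log2 difference of −2.43 that 28 genes (2.45%) reached. Lbx1 was 1.53-fold higher in control 1 (1.24 to 1.90), a log2 difference of 0.61, close to the median. Between the knockouts Tlx1 differed by 1.24 on the log2 scale, on 4 reads against 1. The 4 genes thus shared low values in both knockouts but had no common order of the controls.

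**Figure D2:**
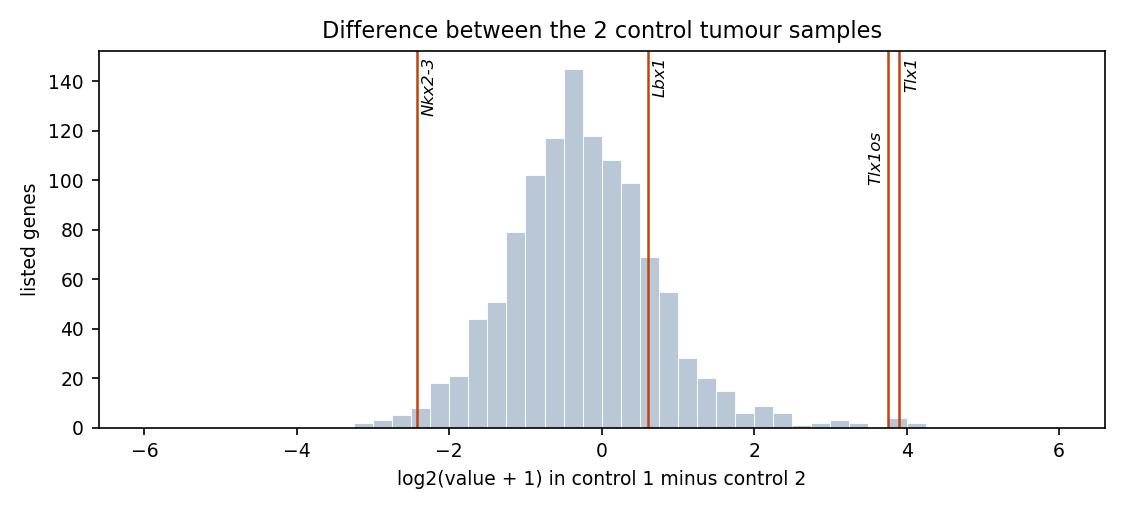
Number of listed genes by the difference between control 1 and control 2 on the log2(value + 1) scale, in bins of 0.25, with vertical lines at the 4 genes. Tlx1 (3.91) and Tlx1os (3.75) lie in the far right tail, Nkx2-3 (−2.43) in the left tail and Lbx1 (0.61) inside the main body.

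Levels can be compared between genes per kilobase of exon. In knockouts 1 and 2 Tlx1 stood at 1.69 and 0.448 normalised reads per kilobase and the other 3 genes at 0. In control 1 the levels per kilobase were 1052 for Tlx1, 96.0 for Lbx1, 93.7 for Tlx1os and 24.2 for Nkx2-3. In control 2 they were 132 for Nkx2-3, 69.7 for Tlx1, 62.8 for Lbx1 and 5.47 for Tlx1os. Nkx2-3 was therefore lowest in one control and highest in the other, and no order of the levels held in both beyond Tlx1 lying above Lbx1 and Lbx1 above Tlx1os, and in control 1 Lbx1 and Tlx1os, and in control 2 Tlx1 and Lbx1, stood close together. By normalised reads, Tlx1 ranked 1083 and 1112 of the 1142 listed genes in the knockouts, and 43 and 503 in controls 1 and 2.

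The genes whose profile over the 4 samples lay nearest to each were found by the root mean square distance of centred log2(value + 1). For Tlx1 these were Lbx1 (1.24), Sez6 (1.71), a neuronal membrane protein, and Triml2 (1.78). For Tlx1os they were Triml1 (0.18), Sult4a1 (0.24), a brain sulfotransferase, and Kcnt1 (0.26), a sodium-activated potassium channel. For Lbx1 they were Glycam1 (1.05), Nkx2-3 (1.13) and Tlx1 (1.24). For Nkx2-3 they were Glycam1 (0.56), Fndc3c1 (0.97) and Csn1s2a (1.09), a milk casein. Genes named Gm plus digits or ending in Rik were left out of this search. The distances rest on 4 samples, and of the 12 names 4 were kept with a pseudocount of 0.1 and 5 with a pseudocount of 5. Tlx1 and Nkx2-3 lay 2.31 apart and Tlx1 and Tlx1os 1.85. Each distance includes the difference between knockouts and controls by which the 4 genes were chosen. That these genes lay near each other is therefore not independent of the choice, and nothing is read from it.

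Along the chromosome, Tlx1 ends 75.7 kb before Lbx1 starts, and the nearest end of Tlx1os is 73.4 kb from it, with 0 other genes annotated in that gap. Nkx2-3 lies 1.53 Mb from Tlx1 on the other side, and the whole stretch spans 1.62 Mb. GENCODE M21 places 57 genes between Nkx2-3 and Lbx1, of which 32 are protein-coding. Only 2 of the 57, Tlx1 and Tlx1os, are in the tables, and the other genes were not analysed here. Within 2 Mb outside this stretch, 2 more genes were listed, and they went in opposite directions. Loxl4, which encodes a lysyl oxidase that crosslinks collagen, lies 999.5 kb from Nkx2-3. It had 41.6 and 24.0 normalised reads in the knockouts, against 164 and 57.6 in the controls. The groups did not overlap, as in nearly all listed genes: both knockouts lay below both controls in 441 and above both in 700. It fell by 1.59 on the log2 scale (SE 0.60, limma adjusted p = 0.0274), but without control 1 the difference was −0.85 with limma adjusted p = 0.19. Calhm2, which encodes a calcium homeostasis modulator channel, lies 1.87 Mb from Lbx1. It had 152 and 154 normalised reads in the knockouts, against 51.1 and 81.3 in the controls, a rise of 1.23 (SE 0.41, limma adjusted p = 0.0185). It was not called after TMM, RLE or upper-quartile scaling over the listed genes, where the rise was 0.50, 0.15 and 0.81. Without either knockout in turn, neither gene passed.

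The other listed genes of chromosome 19 numbered 38, of which 26 rose and 12 fell, by the deposited scaling. Their share called lower was 31.6%, against 38.5% of all listed genes, and their median log2 difference was 1.19, against 1.23. The lowest of the 38 was Actn3, a muscle actinin, at −3.41. Within 5 Mb there were 7 other listed genes, of which 6 were higher and 1 lower. Of all listed genes 61.3% were called higher with the deposited scaling. TMM, RLE and upper-quartile scaling over the listed genes moved the median log2 difference of the table to 0.49, 0.14 and 0.80, and the 26 higher calls on chromosome 19 to 11, 8 and 18, with 12 lower calls in each. On the log2(value + 1) scale, with all 4 samples and the deposited scaling, no other listed gene of the chromosome was as low as Tlx1, Tlx1os, Lbx1 or Nkx2-3. As these 4 were chosen with their low knockout values known, nothing is read from that order. With a pseudocount of 5, Myrf (−2.35) and Actn3 (−2.32) were lower than Tlx1os (−2.20).

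**Figure D3:**
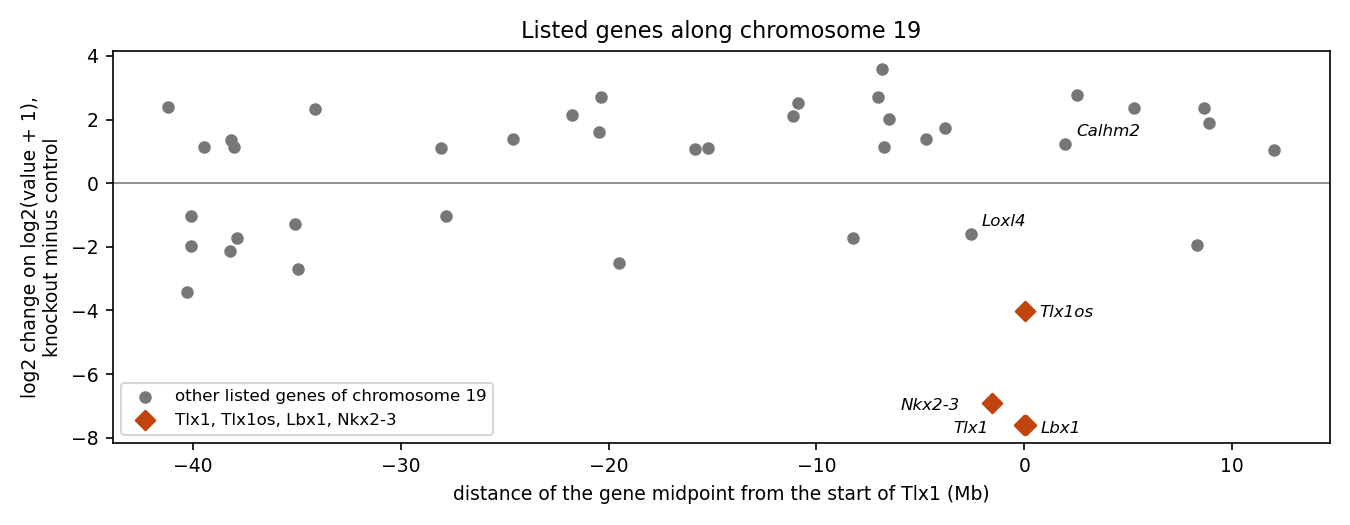
Log2 difference, knockout minus control, of each listed gene of chromosome 19 against the distance of its midpoint from the start of Tlx1 in Mb. Diamonds are the 4 genes, with Tlx1 and Lbx1 overlapping at −7.60, and grey points are the other 38, which lie between −3.41 and 3.60.

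Genes tied to these factors by family, partnership or pathway were taken from 6 lists holding 117 other genes, of which only 14 were in the tables. With the deposited scaling 10 of the 14 rose and 4 fell, with a median log2 difference of 1.30 against 1.23 over all listed genes, of which 61.3% rose. After TMM, RLE and upper-quartile scaling 3, 2 and 7 were called higher, with 4 lower in each. Among them was Icam1, an endothelial adhesion receptor named here after its values were seen. Its log2 difference was 1.08 with the deposited scaling and −0.0046, almost none, after RLE scaling. Without knockout 1 or knockout 2, 0 of the 14 passed limma's adjusted threshold.

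Of 37 relatives looked up among NK-like and related homeobox genes, 2 were listed. Both rose with the deposited scaling, though neither was called after TMM or RLE scaling. The 37 did not include the Dlx genes given below, of which Dlx5 and Dlx6 rose and Dlx3 fell. Barx2, a homeobox gene of epithelia and muscle, had 612 and 735 normalised reads in the knockouts, against 207 and 356 in the controls, a rise of 1.30 (SE 0.37, limma adjusted p = 0.0118). Msx2, a target of BMP signalling, had 152 and 242 in the knockouts, against 85.2 and 85.9 in the controls, a rise of 1.15 (SE 0.40, limma adjusted p = 0.0202). The loss of either control also ended the call of Msx2, at limma adjusted p = 0.0708 without control 1 and 0.0649 without control 2. None of the 4 other homeobox genes of chromosome 19 looked up, Pitx3, Hhex, Vax1 and Emx2, was in the tables. Of 17 partner proteins 1 was listed. Pbx3, a TALE-class cofactor of homeodomain proteins, had 72.3 and 68.1 normalised reads in the knockouts, against 219 and 125 in the controls. It fell by 1.23 (SE 0.42, limma adjusted p = 0.0201), and without control 1 limma gave −0.83 and an adjusted p of 0.0549.

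Of 21 genes of spleen and gut mesenchyme tied to Tlx1 and Nkx2-3, 5 were listed, of which 4 rose and 1 fell with the deposited scaling. Cxcl13, the chemokine of B-cell follicles, had 50.6 and 118 normalised reads in the knockouts, against 1.00 and 13.6 in the controls, a rise of 3.86 (SE 0.95, limma adjusted p = 0.00819). Vcam1, an adhesion receptor for leukocytes, had 838 and 847 in the knockouts, against 212 and 289 in the controls, a rise of 1.76 (SE 0.33, limma adjusted p = 0.00376). After RLE scaling Vcam1 was at 0.67 and was not called. Aldh1a1, which makes retinoic acid and is also on chromosome 19, had 208 and 268 in the knockouts, against 105 and 75.7 in the controls, a rise of 1.39 that was not called after TMM or RLE scaling. Cyp26b1, which degrades retinoic acid, fell by 2.67 (SE 0.53, limma adjusted p = 0.00441). It had 10.8 and 10.5 normalised reads in the knockouts, against 62.1 and 87.0 in the controls.

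Of 27 genes of migrating muscle precursors and spinal interneurons tied to Lbx1, 4 were listed, of which 3 rose and 1 fell with the deposited scaling. Hgf, the ligand that draws muscle precursors into the limb, had 41.6 and 31.6 normalised reads in the knockouts, against 8.02 and 7.91 in the controls, a rise of 2.06. Cxcl12, a chemokine that guides the same cells, had 1149 and 1150.5 in the knockouts, against 380 and 580 in the controls, a rise of 1.29. Lmx1b, a LIM homeobox gene of dorsal spinal neurons and limb, had 295 and 361 in the knockouts, against 161 and 106 in the controls, a rise of 1.31. None of these 3 was called after TMM or RLE scaling. Gad1, which makes the transmitter GABA, had 28.9 and 12.5 in the knockouts, against 88.2 and 71.2 in the controls. It fell by 2.0 (SE 0.55, limma adjusted p = 0.011), and limma's adjusted p was 0.0766 without control 1 and 0.0527 without control 2.

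Of 19 genes known as activated near insertions of mouse mammary tumour virus, 2 were listed. Fgfr2, a receptor of fibroblast growth factors, had 1600.3 and 2148 normalised reads in the knockouts, against 192 and 150.3 in the controls, a rise of 3.44 (SE 0.33, limma adjusted p = 0.00101). Rspo1, which amplifies Wnt signalling, had 14.5 and 16.3 in the knockouts, against 181 and 30.5 in the controls. It fell by 2.21 (SE 0.79, limma adjusted p = 0.0229), but without control 1 by 0.95, at limma adjusted p = 0.0656. Like Tlx1, it was the higher in control 1.

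**Figure D4:**
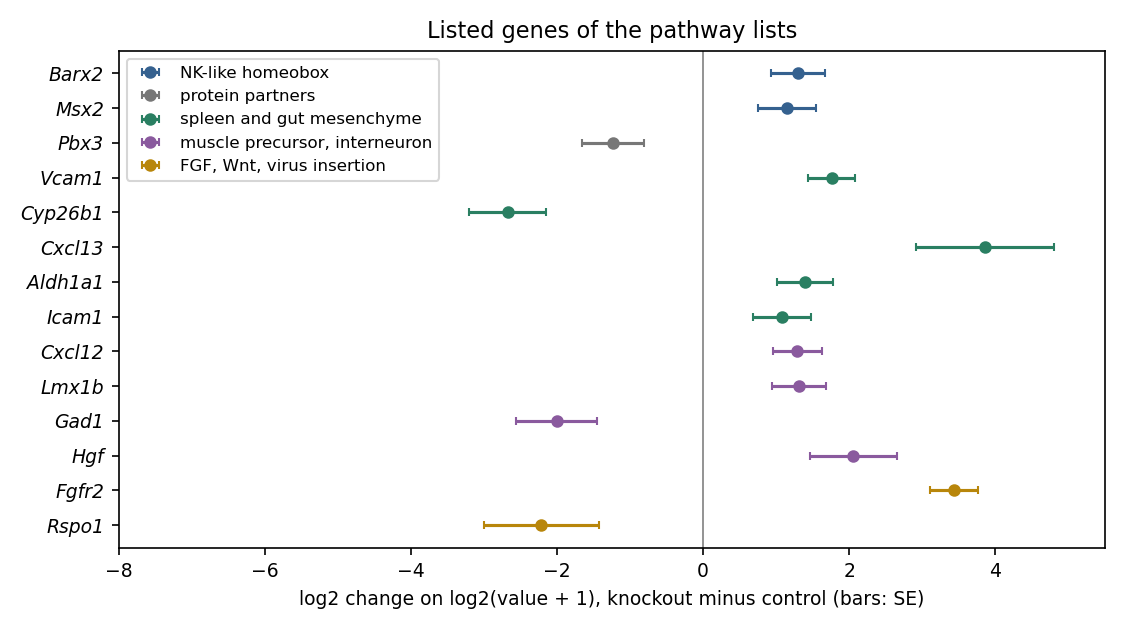
Log2 difference on log2(value + 1), knockout minus control, of the 14 listed genes of the pathway lists, coloured by list, with bars of 1 SE. With the deposited scaling 10 lie above 0 and 4 (Pbx3, Cyp26b1, Gad1 and Rspo1) below it. Icam1, the member nearest to 0 among those above it, was at −0.0046 after RLE scaling.

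Markers of other cell types moved between the same samples. Of 20 skeletal muscle markers, 11 were listed, and limma called 10 of them lower, beside 38.5% of all listed genes. The other, Mylk2, had 12.7 and 13.4 normalised reads in the knockouts, against 162 and 18.1 in the controls, at limma adjusted p = 0.0595. edgeR, DESeq2 and limma with the replicate block called all 11 lower. Their summed level was 102 and 75.7 normalised reads in the knockouts, against 890 and 1148 in the controls. Myh1 was at 0 in knockout 1 and Pvalb at 0 in knockout 2. The sum was higher in control 2 than in control 1, as was Nkx2-3, while Tlx1, Tlx1os and Lbx1 were higher in control 1. Single muscle markers had no common order: Acta1, Ryr1 and Mylk2 were higher in control 1 and all the other listed ones in control 2. Of 15 neuron markers, 2 were listed, Gad1 and Nefh, and both fell. Their sum was 38.9 and 19.2 in the knockouts, against 161 and 93.8 in the controls. Of 10 markers of lymph node and spleen stroma, 2 were listed. Cxcl13 was higher, as given above, and Glycam1 had 1.81 and 4.79 normalised reads in the knockouts, against 405 and 1834 in the controls. Their sum was 52.4 and 123 in the knockouts, against 406 and 1847 in the controls. It was mostly Cxcl13 in the knockouts and nearly all Glycam1, also a mammary gland gene, in the controls. The sum therefore describes no common change of these markers. The part of these cell types in the low values of Tlx1, Tlx1os, Lbx1 and Nkx2-3 was not tested.

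Of 15 T-cell markers, 0 were listed, so T cells, in which human TLX1 acts as an oncogene, were not analysed here. Of 14 B- and plasma-cell markers, 3 were listed and all 3 rose with the deposited scaling, as did 61.3% of all listed genes. After TMM and RLE scaling 2 of the 3 were called. They had a sum of 732 and 1085 in the knockouts, against 165 and 230.5 in the controls. Of 10 Schwann cell markers, 4 were listed, of which 3 rose and 1 fell with the deposited scaling, against 2 and 1 called higher after TMM and RLE scaling. They had a sum of 1510 and 1528 in the knockouts, against 776 and 1533 in the controls. Mal, the marker that fell, held most of this sum in the controls. Of 11 fibroblast markers, 3 were listed, of which 2 rose and 1 fell with the deposited scaling, against 1 and 0 called higher after TMM and RLE scaling. They had a sum of 18894 and 24808 in the knockouts, against 9679 and 11760 in the controls. Sparc held most of this sum in every sample, and Fn1 was the marker that fell. For the tissue itself, 6 of 16 mammary epithelium markers were listed. Of these 4 rose and 2 fell with the deposited scaling, and 4 and 3 were called higher after TMM and RLE scaling. Their sum was 18663 and 20662 in the knockouts, against 8354 and 13254 in the controls. Krt19 alone held 13167 and 14459 in the knockouts, against 3459 and 6051 in the controls. The 2 that fell were Krt14 and Csn2, the latter at 29.8 and 143 in the knockouts, against 439 and 3926 in the controls. The Schwann cell, fibroblast and epithelium sums therefore describe no common change of their markers. Markers of mammary epithelium were thus present in every sample.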

How the data were processed

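Messenger RNA of 4 tumour samples was analysed, 2 knockouts and 2 controls, grouped by the genotype in the labels. The deposited signal values are reads per gene scaled by a single size factor in each sample, as the values themselves show: dividing them by the smallest non-zero value gave whole reads for 100%, within 1e-06. In control 1 that smallest value is 1.0021, close to 1, and its values too were whole multiples of it within that tolerance. Libraries were made with a TruSeq RNA kit from TRIzol-type extracts, per the labels' protocols. Bowtie 0.12.2 and the builds hg38, GRCm38 and mm10 are named, with no role, in the submitters' processing notes. Counter, strand setting, annotation and selection criteria are named in neither. Deposited coordinates and lengths of the 4 genes equal those of GENCODE M21 (GRCm38), in which 1141 identifiers were found, 1096 with identical coordinates.

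The fit was limma 3.58.1 (R 4.3.3) with trend on log2(value + 1), keeping genes with a mean of 0.5 or more, on 2 residual degrees of freedom, with p-values adjusted by Benjamini-Hochberg across the 1142 genes and a threshold of 0.05. Folds are ratios of group means, with a floor of 3 reads over the group where it had none. Replicates were compared first: over their reads, chi-square divided by its degrees of freedom came to 13.3 for the knockouts and 53.7 for the controls. Replicates of a group were therefore not copies of the same set of reads. Whether they came from the same animal or tumour cannot be told from these values. Alternatives were other pseudocounts, filters and scalings, edgeR 4.0.16 and DESeq2 1.42.0 on recovered reads, a replicate block and leaving out each sample. The script was tested on simulated data. Columns without a sample numbered 0.

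The members and lists were chosen with earlier results of these data known. Genes named were the members, the 3 nearest profiles to each, listed genes within 2 Mb, up to 4 of each list by size of change, and those without knockout reads but at least 10 in each control. Icam1, Myrf, the genes next in rank, the genes of the closing observations and single markers were named outside this rule.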

Additional observations from a re-analysis of the deposited data

How the results depend on the processing

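The log2 differences of the 4 genes were negative under every setting tried, and that of Tlx1 lay between −9.55 and −5.64 with each sample left out in turn. Sizes of the others moved with the value given to no reads. Tlx1os was at −7.16 and −2.20 with pseudocounts of 0.1 and 5, −7.97 with edgeR and −7.49 with DESeq2, and between −5.89 and −2.13 with samples left out. Lbx1 was at −10.91 and −5.31 with pseudocounts of 0.1 and 5, −7.97 after TMM, −8.14 after RLE, −10.64 with edgeR and −10.17 with DESeq2, and between −7.90 and −7.29 with samples left out. Nkx2-3 was at −10.22 and −4.66 with those pseudocounts, −10.38 with edgeR and −9.91 with DESeq2, and between −8.13 and −5.70 with samples left out. Leaving out 1 sample, 0 to 4 of the 4 genes, 0 to 405 listed genes and 0 to 1 neighbours within 2 Mb were called lower, with 13 to 665 listed genes and 0 to 1 neighbours higher. Pathway genes were then called lower in 0 to 3 cases and higher in 0 to 9. The zeros are those of limma without knockout 1 or 2, and for the lower neighbour also without control 1, and the single sample left is assumed to vary like the controls. TMM and RLE gave 278 and 171 listed genes higher, against 700, and 3 and 2 pathway genes, against 10. No neighbour was called higher after TMM, RLE or upper-quartile scaling (0 of 2 genes by limma, against 1), the last chosen after seeing the data. Widening the window to 5 Mb gave 7 neighbours. The filters changed no value. With the replicate block 700 listed genes were higher and 442 lower, the 4 genes included. Same-numbered samples had deviations correlated at 0.0429 over genes, and no label pairs them. Depth limits what can be said of the knockouts: 3 reads are 2.71 and 2.88 normalised reads there.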

Other observations

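Apart from the 3 coding genes described, 14 listed genes carried a homeobox annotation in the tables, Barx2, Msx2, Pbx3 and Lmx1b among them. With the deposited scaling 11 of the 14 rose and 3 fell, against 61.3% and 38.5% of all listed genes. After TMM, RLE and upper-quartile scaling 6, 3 and 9 were called higher, and 3 lower in each. The genes below were named after their values were seen. Irx4, an Iroquois gene known from the heart ventricle, had 486 and 469 normalised reads in the knockouts, against 34.1 and 71.2 in the controls, a log2 rise of 3.25 (SE 0.43, limma adjusted p = 0.00169). Pdx1, the pancreatic and duodenal factor, had 58.7 and 56.6 in the knockouts, against 4.01 and 6.78 in the controls, a rise of 3.23 (SE 0.60, limma adjusted p = 0.00377). Prrx2, a mesenchymal gene, had 41.6 and 66.2 in the knockouts, against 339 and 306 in the controls, and fell by 2.60 (SE 0.40, limma adjusted p = 0.00235). Without knockout 1 or knockout 2, limma called 2 of the 14 higher and 0 lower.

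The Dlx genes, homologues of Drosophila Distal-less, did not share a direction. Dlx5 had 188 and 112 normalised reads in the knockouts, against 16.0 and 41.8 in the controls. Its neighbour Dlx6 had 27.1 and 4.79 in the knockouts and no read in either control. Dlx3 had 5.42 and 10.5 in the knockouts, against 64.1 and 48.6 in the controls. Hoxc10 too had no read in the controls, against 13.6 and 22.1 normalised reads in the knockouts.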
